A study of Felis catus with 6 samples.

Results

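A4GALT and B3GALNT1 encode the enzymes of 2 successive steps in the synthesis of globo-series glycolipids, and they moved in opposite directions between feline chronic gingivostomatitis (FCGS) lesions and adjacent healthy oral mucosa. Mean A4GALT was 165 ± 54.0 FPKM in lesions against 38.1 ± 6.32 FPKM in healthy tissue, whereas mean B3GALNT1 was 18.1 ± 4.21 FPKM in lesions against 93.2 ± 19.4 FPKM in healthy tissue (SD, 3 cats per group). FPKM counts fragments relative to transcript length and library size. Comparing the levels of both genes with each other thus rests on the transcript lengths used, which were not checked here. The genes are 2 of 21529 Ensembl identifiers in the files, ENSFCAG00000008576 (A4GALT) and ENSFCAG00000013235 (B3GALNT1). They were chosen by their role in the pathway together with their measured lesion and healthy values, so this difference is a description and carries no test.

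FCGS is a chronic, immune-mediated inflammation of the oral mucosa of cats. The series holds 6 RNA libraries from 3 cats, labelled Bart, Jerome and Sadie, with a library of inflamed mucosa (lesion) and a library of adjacent healthy mucosa from each animal. Healthy mucosa therefore came from affected cats, without samples from unaffected animals. According to the study, its FCGS cats were edentulous and had not responded to tooth extraction. They were negative for FIV and FeLV and were not tested for feline calicivirus. At tissue collection they received buprenorphine but no immunosuppressive drug or antibiotic. The labels call the tissue gingival, while the design text and the study's methods place the biopsies beside the palatoglossal folds. The sources used here give no age for these 3 cats.

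Globo-series glycolipids are sugar chains on a ceramide anchor in the outer leaflet of the cell membrane. Lactosylceramide is the shared precursor of several branches, and A4GALT commits it to the globo-series by adding a galactose, which gives Gb3 (globotriaosylceramide, CD77). B3GALNT1 then adds an N-acetylgalactosamine to Gb3, which gives Gb4 (globoside). Gb3 is the receptor of Shiga toxins, occurs on endothelial cells and on germinal centre B cells, and is cleaved in lysosomes by the alpha-galactosidase GLA. The data are RNA levels of the enzymes, and glycolipids were not measured.

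Symbols are not in the files. They were obtained by matching the values of each row of a supplementary table of the study, which lists genes at least 2-fold different, to 1 identifier. This gave a symbol to 1929 identifiers. Both genes had exactly 1 match and passed the filter on low values (1 FPKM or more in any 3 libraries), as did 13327 identifiers in all. The table at hand ends at a log2 difference of -2.38, just beyond B3GALNT1, so stronger falls carry no symbol here. For this reason B3GALNT1 has the fourth-largest fall among identifiers with a symbol, but 531 tested identifiers fell further.

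The libraries summed to between 1382120 and 1903770 FPKM, and the medians of the tested identifiers lay between 3.46 and 3.50 on the log2 scale. The files hold no read numbers. The 10 named skeletal muscle markers reached summed levels of 5641 FPKM (lesion of Jerome), 4906 FPKM (lesion of Sadie) and 2427 FPKM (healthy mucosa of Sadie), against 19.9 FPKM or less in the other libraries. KRT4, a keratin of suprabasal oral epithelium, measured 2089 FPKM in healthy mucosa and 8.99 FPKM in the lesion of Bart, but was listed at 0 in healthy mucosa of Jerome and Sadie, whose lesions reached 2534 and 569 FPKM. The muscle markers were thus uneven within each tissue, and KRT4 differed in direction between Bart and the other cats.

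A4GALT, the Gb3 synthase, measured 224 FPKM in the lesion of Bart, 152 FPKM in that of Jerome and 118 FPKM in that of Sadie. In healthy mucosa it measured 44.9 FPKM in Bart, 37.1 FPKM in Jerome and 32.3 FPKM in Sadie. The tissues did not overlap, and the lowest lesion lay 2.62-fold above the highest healthy library. The cats kept the same order in both tissues, with Bart highest and Sadie lowest. On the log2 scale, with values below 1 FPKM raised to 1, lesion exceeded healthy mucosa by 2.32 in Bart, by 2.04 in Jerome and by 1.86 in Sadie. Its mean of 2.07 corresponds to a 4.21-fold higher level and has an SD of 0.23 over the cats. Groups that do not overlap in this direction were common, with 16.7% of the tested identifiers. Without the lesion of Bart, the mean log2 difference was 1.83.

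In each lesion A4GALT was among the more abundant transcripts, with 515 tested identifiers above it in Bart, 736 in Jerome and 872 in Sadie. In healthy mucosa 2300 to 3368 tested identifiers lay above it. The log2 rise of A4GALT was exceeded by 591 tested identifiers, 328 of which had a symbol.

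B3GALNT1, the Gb4 synthase, measured 71.8 FPKM in healthy mucosa of Bart, 110 FPKM in that of Jerome and 98.3 FPKM in that of Sadie. In lesions it measured 20.1 FPKM in Bart, 20.9 FPKM in Jerome and 13.2 FPKM in Sadie. The tissues again did not overlap, and the lowest healthy library lay 3.44-fold above the highest lesion. Bart and Jerome were close to each other among the lesions, whereas among the healthy libraries Bart was the lowest. The log2 differences were -1.84 (Bart), -2.39 (Jerome) and -2.89 (Sadie), with a mean of -2.37 and an SD of 0.53 over the cats. The mean corresponds to a 5.18-fold lower level in lesions. Of the tested identifiers, 21.9% had lesions entirely below healthy mucosa. In healthy mucosa 1048 to 1494 tested identifiers lay above B3GALNT1, against 4546 to 6038 in lesions.

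The size of the change ran in opposite order over the cats. Bart had the largest rise of A4GALT and the smallest fall of B3GALNT1, while Sadie had the smallest rise and the largest fall. With 3 cats this order was not tested.

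By FPKM, the relative level of both genes turned over between the tissues. In healthy mucosa B3GALNT1 was the higher of the pair, 1.60-fold above A4GALT in Bart, 2.95-fold in Jerome and 3.04-fold in Sadie. In lesions A4GALT was higher, 11.1-fold above B3GALNT1 in Bart, 7.29-fold in Jerome and 8.90-fold in Sadie. The log2 ratio of A4GALT to B3GALNT1 was 3.17 ± 0.30 in lesions and -1.28 ± 0.52 in healthy mucosa (SD, n = 3 each), a difference of 4.45 in this log2 ratio. Within each cat the ratio was 17.8-fold higher in the lesion of Bart, 21.5-fold in that of Jerome and 27.0-fold in that of Sadie. The ratio is taken within a library, so a scaling factor of that library drops out of it. The FPKM of both genes added up to 131 in the lesion and 131 in healthy mucosa of Sadie. In Bart the sum was 244 against 117 FPKM, and in Jerome 173 against 147 FPKM.

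**Figure D1:**
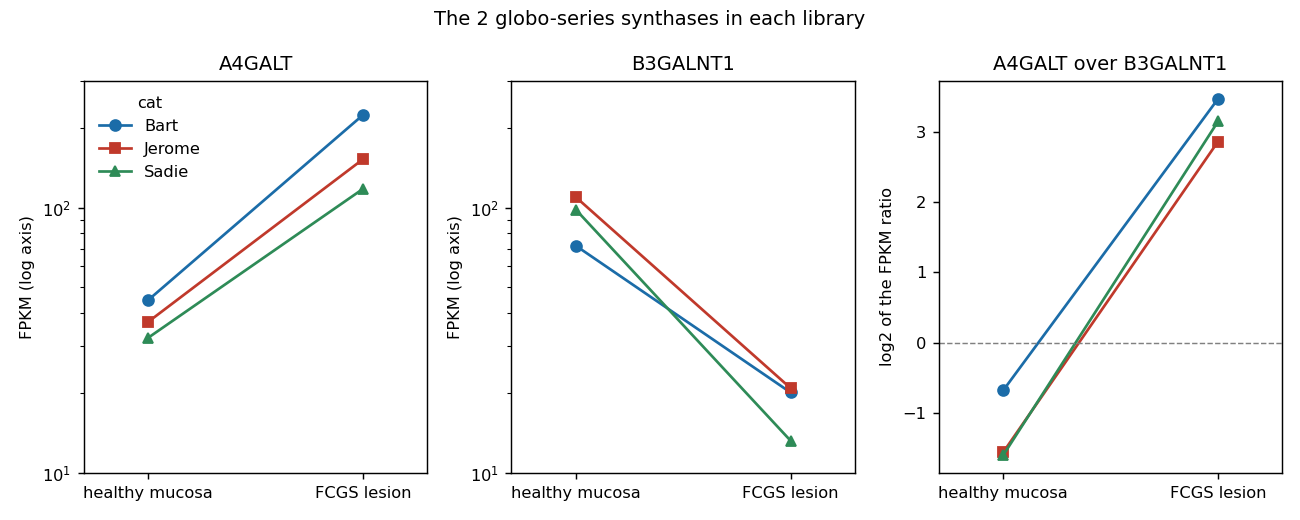
FPKM of A4GALT and B3GALNT1 (log axis, left and middle) and the log2 of their ratio (right) in healthy mucosa and FCGS lesions, with 1 line per cat. A4GALT is higher and B3GALNT1 lower in the lesion of all 3 cats, and the ratio lies below 0 in the 3 healthy libraries and between 2.87 and 3.48 in the 3 lesions.

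Within a tissue the genes varied about as much as others of their level. The SD of log2 FPKM within tissues was 0.37 for A4GALT, against a median of 0.33 for the 853 tested identifiers whose mean level lay within 0.5 of it on the log2 scale, and 56.6% of those varied less. For B3GALNT1 it was 0.34, against a median of 0.33 for 1613 such identifiers, and 52.8% of those varied less. A4GALT differed most between lesions, by 1.90-fold from the lowest to the highest, and by 1.39-fold between healthy libraries. For B3GALNT1 these ranges were 1.58-fold and 1.53-fold.

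The other genes of glycosphingolipid metabolism were taken from 7 lists with 101 genes in all, of which 23 had a symbol. Among the 21 apart from A4GALT and B3GALNT1, limma called 7 higher and 4 lower in lesions at an adjusted p under 0.05. Over all tested identifiers it called 5.31% higher and 6.61% lower. Having a symbol required a 2-fold difference in the same comparison, and among falls the symbols end at a log2 difference of -2.38. Nothing is therefore read from these shares. For the same reasons the median log2 difference of the 21, 1.03 against -0.07 over all tested identifiers, describes only how the symbols fell. The calls depended on single libraries: without the lesion or the healthy library of Sadie, and without both libraries of Jerome or of Sadie, limma called 0 of the 21. At an unadjusted p under 0.05, 9 to 10 were higher and 4 to 6 lower in those 4 fits. Without the lesion or the healthy library of Jerome 0 were called higher and 3 and 1 lower.

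Upstream of A4GALT, the 2 lactosylceramide synthases had higher values in lesions without passing the test. B4GALT5 measured 75.0 FPKM in the lesion of Bart, 16.3 FPKM in that of Jerome and 13.9 FPKM in that of Sadie, against 12.7, 12.3 and 2.97 FPKM in their healthy mucosa (log2 difference 1.73, adjusted p = 0.23 from limma). The lesion of Bart stood far above the other libraries. B4GALT6 averaged 2.15 ± 0.79 FPKM in lesions against 0.65 ± 0.16 FPKM in healthy tissue (SD, n = 3 each) and had a limma adjusted p of 0.087. Its healthy values lie below the floor of 1 FPKM, so its log2 difference of 1.04 understates the change. UGCG, which makes glucosylceramide, had no symbol and is not described here.

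Of 16 genes listed for the lacto and neolacto branch 2 had a symbol, as had 2 of 11 listed for the ganglio branch, and limma called 3 of these 4 higher and 0 lower. B3GALT4, which extends gangliosides, rose from 6.02 ± 0.14 to 15.6 ± 2.59 FPKM (SD, n = 3 each; adjusted p = 0.025 from limma). ST6GAL1, a sialyltransferase of glycoproteins that is abundant in B cells, rose by 2.31 on the log2 scale (adjusted p = 0.029). GCNT2, the branching enzyme of the I blood group antigen, rose by 1.91 on the log2 scale (adjusted p = 0.043). The ganglioside sialyltransferase ST8SIA5 had a log2 difference of 1.58 and did not pass (adjusted p = 0.056). Of 7 globo-series genes in the list, A4GALT and B3GALNT1 were the only ones with a symbol. The other 5 are B3GALT5, ST3GAL2, GBGT1, FUT1 and FUT2.

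Of 16 genes of lysosomal breakdown in the list, 3 had a symbol, and of these 2 were called higher and 0 lower. GLA, which removes the terminal galactose of Gb3 and thus reverses the step of A4GALT, measured 17.7, 19.1 and 21.9 FPKM in the lesions of Bart, Jerome and Sadie and 4.84, 7.46 and 6.30 FPKM in their healthy mucosa. The tissues did not overlap, and GLA rose by 1.67 on the log2 scale, with a standard error of 0.25 and a limma adjusted p of 0.023. ARSA, the sulfatidase of lysosomes, rose by 1.14 on the log2 scale (adjusted p = 0.034). PSAP, the precursor of the saposins that present glycolipids to these enzymes, averaged 1137 ± 220 FPKM in lesions against 557 ± 116 FPKM in healthy tissue (SD, n = 3 each). Its limma adjusted p was 0.051, and 0.0265 with the cat as a block.

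Of 31 genes of ceramide synthesis and modification 8 had a symbol, with 1 called higher and 2 lower, and of 15 transport and Golgi genes 4 had one, with 1 called higher and 2 lower. GLTP, a transfer protein for glycolipids, measured 15.7, 24.2 and 16.7 FPKM in the lesions of Bart, Jerome and Sadie and 106, 85.9 and 92.5 FPKM in their healthy mucosa, without overlap (log2 difference -2.35, adjusted p = 0.019 from limma). SPTLC3, a subunit of serine palmitoyltransferase, the first enzyme of ceramide synthesis, fell from 8.70 ± 0.35 to 1.83 ± 0.86 FPKM (SD, n = 3 each; adjusted p = 0.025). ELOVL1, an elongase of very long fatty acids, had a log2 difference of -1.28 (adjusted p = 0.037). SLC35D2, a Golgi transporter of nucleotide sugars, had one of -2.17 (adjusted p = 0.024). ASAH1, the lysosomal ceramidase, went the other way with a rise of 1.14 on the log2 scale (adjusted p = 0.0496). GALK2, a kinase of N-acetylgalactosamine, rose by 1.22 (adjusted p = 0.032).

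FA2H, ORMDL2, SGMS2, SPHK1 and ACER2, all from the ceramide list, did not pass, with log2 differences between -1.78 and -1.10. ACER2, a ceramidase, differed between cats in sign, at 0.60 in Bart, -2.60 in Jerome and -1.29 in Sadie. With the cat as a block, limma called 8 of the 21 higher and 7 lower. The added rise was PSAP, and FA2H and ORMDL2 were among the added falls.

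**Figure D2:**
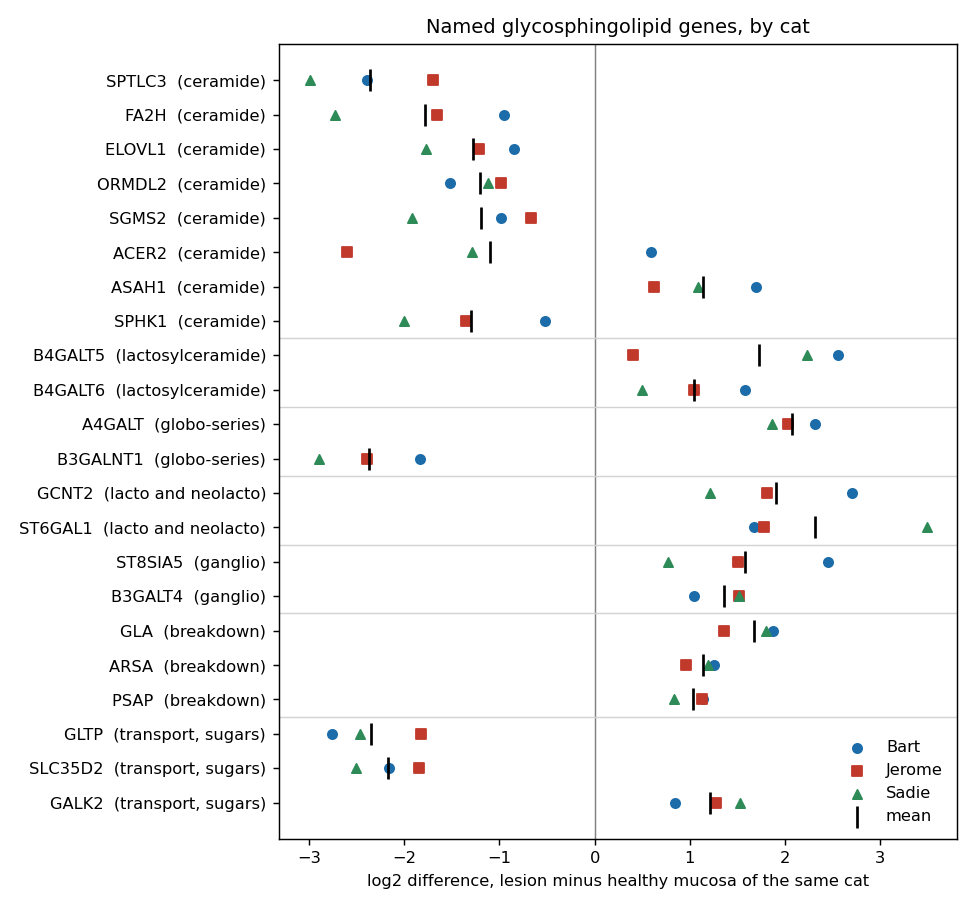
Log2 FPKM of the lesion minus that of healthy mucosa (horizontal axis) for the glycosphingolipid genes named in the text that have a symbol (vertical axis, grouped by step), with 1 point per cat and the mean as a black bar. B3GALNT1 lies between -2.89 and -1.84, while the lactosylceramide synthases, A4GALT, the lacto, neolacto and ganglio genes and the breakdown genes lie above 0 in all 3 cats.

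The genes whose pattern over the 6 libraries was closest to each enzyme were sought among identifiers with a symbol, by the root mean square difference of log2 values centred on the median of each gene. For A4GALT these were FAM167B (0.12), PLVAP (0.15), TCF4 (0.17), PTAFR (0.18) and LRRC32 (0.18). PLVAP encodes a protein of endothelial fenestrae, TCF4 a transcription factor, PTAFR the receptor of platelet-activating factor and LRRC32 a surface protein that binds latent TGF-beta. Their correlation with A4GALT over the 6 libraries was 0.987 to 0.996 (Pearson, a description over libraries that share a scaling and a tissue difference). PLVAP measured 368, 215 and 203 FPKM in the lesions and 81.1, 70.7 and 59.4 FPKM in healthy mucosa of Bart, Jerome and Sadie. This is the order of libraries that A4GALT has.

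For B3GALNT1 the closest were NCAPD3 (0.12), MLLT4 (0.16), PLB1 (0.22), SDR16C5 (0.25) and FMO5 (0.27). MLLT4 encodes afadin, an adaptor of adherens junctions, NCAPD3 a subunit of condensin, PLB1 a phospholipase, SDR16C5 a retinol dehydrogenase and FMO5 a monooxygenase. PLB1 measured 0.147, 1.47 and 0.412 FPKM in the lesions of Bart, Jerome and Sadie, so its likeness rests in part on values raised to the floor of 1 FPKM. The correlation of the 5 genes with B3GALNT1 was 0.984 to 0.998 over the same libraries. MLLT4 was also close in level, with a mean of 20.4 FPKM in lesions against 96.6 FPKM in healthy tissue.

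**Figure D3:**
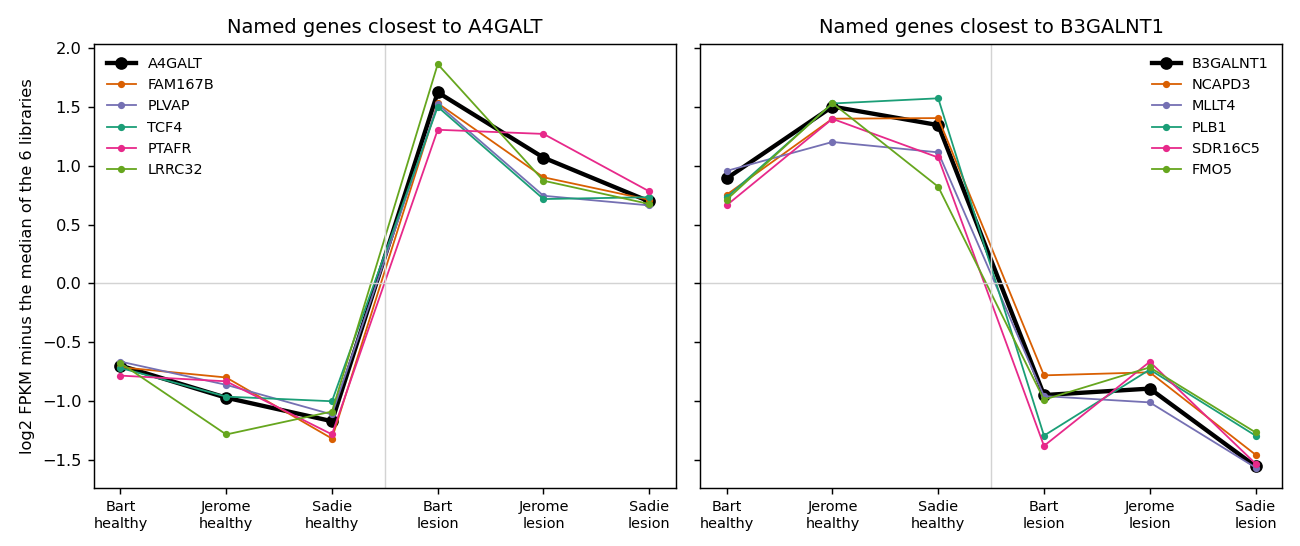
Log2 FPKM of each gene minus its median over the 6 libraries (vertical axis), by library (horizontal axis), for A4GALT and B3GALNT1 (black) and the 5 named genes closest to each. Lines join separate libraries only to make a gene easier to follow. All genes of the left panel lie below 0 in healthy mucosa and above it in lesions, and the reverse holds in the right panel.

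Biopsies are mixtures, and in these bulk libraries fewer cells of a type and less RNA per cell cannot be told apart. Markers of endothelial cells, which carry Gb3, moved with A4GALT. Of 17 endothelial markers 11 had a symbol, all 11 had higher means in lesions, 4 were called higher by limma, and none of the 11 was listed at 0 in any library. Of all 1929 identifiers with a symbol, 1292 were higher and 637 lower in lesions by mean log2 level. The 637 leave out every fall beyond a log2 difference of -2.38, where the symbols end. Of all tested identifiers, limma called 5.31% higher and 6.61% lower. The marker counts of each cell type stand beside these shares, and nothing is read from them alone. Their summed level was 898 to 2164 FPKM in lesions and 221 to 480 FPKM in healthy mucosa. Of these 11, ENG, PLVAP and VWF put the 6 libraries in the same order as A4GALT. They belong to 140 tested identifiers (1.05%) that shared this order with it, 71 of which are among the 1929 with a symbol. This order, and the ratios to marker sums that follow, were looked at after the values were seen.

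Divided by marker sums, A4GALT overlapped between the tissues for 6 of the 9 cell types, and its range over the libraries was smallest for the endothelial sum. Its FPKM divided by the endothelial sum was 0.103 in the lesion of Bart, 0.159 in that of Jerome and 0.131 in that of Sadie. The corresponding healthy ratios were 0.093 (Bart), 0.138 (Jerome) and 0.147 (Sadie). The highest of the 6 ratios was 1.70-fold above the lowest, and 0.363% of 12953 tested identifiers above 0 in all libraries had a smaller range. Both A4GALT and the endothelial sum rose in lesions, and their naming required a 2-fold difference between the tissues. This was not required of the 12953 identifiers, so nothing is read from the share. Against the sum of the 7 named B cell markers the range of A4GALT was 21.6-fold. The ratio ran from 0.0892 in the lesion of Sadie to 1.93 in healthy mucosa of Bart. The B cell sum was 1320 FPKM in the lesion of Sadie, 213 FPKM in the lesion of Bart and 23.3 FPKM in healthy mucosa of Bart. B cell markers were higher in lesions too, 7 of 7 by their means, 3 of them called, but over the lesions they ran opposite to A4GALT. Against the 2 named fibroblast markers the range was 2.52-fold, and against the 8 named T cell markers it was 5.34-fold with a mean log2 difference of 0.25. The tissues overlapped for the fibroblast, T cell and B cell sums, and for the suprabasal and skeletal muscle sums, whose ranges were 1098-fold and 844-fold. They did not overlap for the plasma cell, myeloid and basal epithelial sums.

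B3GALNT1 and markers of basal epithelium shared their direction between the tissues, but not their order over the libraries of either tissue. Of 10 such markers 3 had a symbol (COL17A1, LAMB3 and LAMB4), all 3 had lower mean log2 levels in lesions, 2 were called lower and none was listed at 0. LAMB3 was nevertheless higher in the lesion of Jerome than in the healthy mucosa of that cat. The summed level, most of it COL17A1, was 52.5 to 152 FPKM in lesions and 255 to 555 FPKM in healthy mucosa. Among the healthy libraries this sum ran opposite to B3GALNT1, highest in Bart and lowest in Jerome. Among the lesions both were highest in Jerome, but B3GALNT1 was lowest in Sadie and the sum was lowest in Bart. B3GALNT1 divided by this sum was 0.383 in the lesion of Bart, 0.138 in that of Jerome and 0.238 in that of Sadie, and 0.129, 0.430 and 0.370 in their healthy mucosa. The tissues overlapped, with a range of 3.33-fold, and 1.17% of the 12953 identifiers had a smaller one. Naming B3GALNT1 and these markers likewise required a 2-fold difference, so nothing is read from this share. Divided by the myeloid, suprabasal and skeletal muscle sums, B3GALNT1 also overlapped between the tissues, with ranges of 13.5-fold, 2536-fold and 5163-fold. It did not overlap for the endothelial, B cell, plasma cell, T cell and fibroblast sums. Of 20 suprabasal markers 3 had a symbol (KRT4, KRT10 and TGM5), 1 with a higher and 2 with lower means in lesions, and their sum follows KRT4.

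The symbols of these markers, like those of the enzymes, required a 2-fold difference between the tissues, so markers that did not differ are missing from the sums. Symbols also end at a log2 difference of -2.38, so any marker with a stronger fall is missing as well. Their part in the changes of A4GALT and B3GALNT1 was not tested. Skeletal muscle markers moved in the direction of A4GALT, with 10 of 10 higher in lesions by their mean log2 levels and 0 called. Their sum was higher in the lesion of each cat, at 19.9 against 5.16 FPKM in Bart, 5641 against 17.6 FPKM in Jerome and 4906 against 2427 FPKM in Sadie. A4GALT was highest in the lesion of Bart, where this sum was low, and lowest in healthy mucosa of Sadie, where it was high. Sums of T cell markers were 231 to 649 FPKM in lesions and 62.1 to 172 FPKM in healthy mucosa, lowest among the lesions in Bart. Of the 8 named T cell markers, all 8 had higher means in lesions and 1 was called. Myeloid and plasma cell markers were mixed in direction, with 6 of 7 and 4 of 5 higher by their means. The exceptions were S100A8, which makes up most of the myeloid sum in each library, and SDC1, which makes up most of the plasma cell sum in healthy mucosa. Epithelium expresses both.

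**Figure D4:**
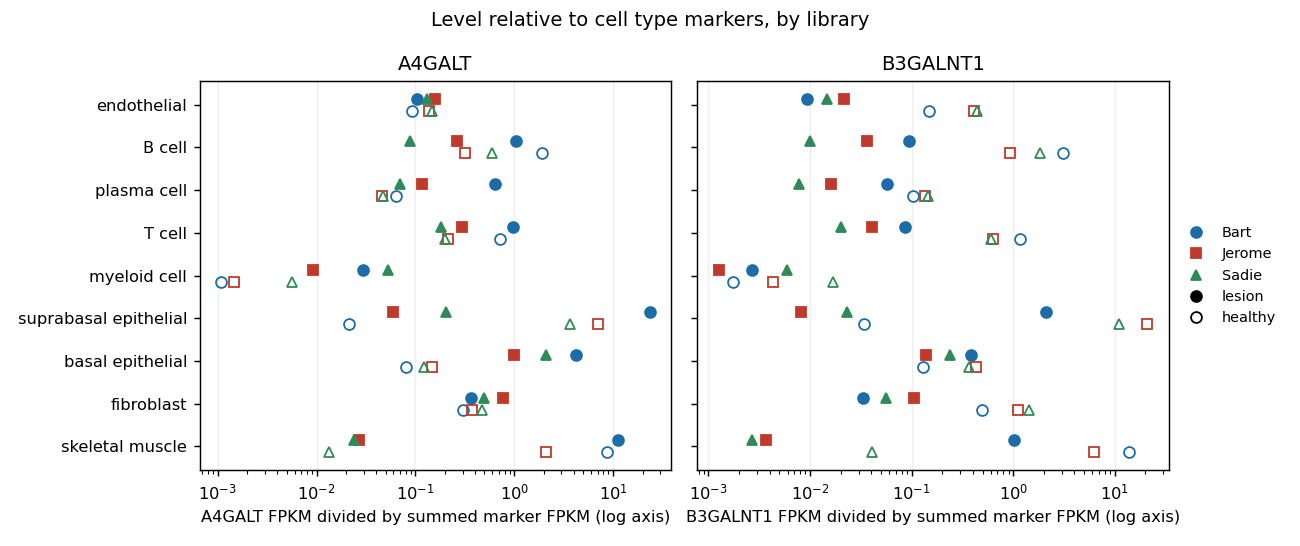
FPKM of A4GALT (left) and B3GALNT1 (right) divided by the summed FPKM of the named markers of each cell type (horizontal log axis), with 1 point per library, filled for lesions and open for healthy mucosa. A4GALT over the endothelial sum stays between 0.093 and 0.159 in all 6 libraries, and B3GALNT1 over the basal epithelial sum between 0.129 and 0.430, with the tissues overlapping in both.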

How the data were processed

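Total RNA of 6 biopsies (lesion and healthy mucosa of 3 cats) was sequenced as strand-specific libraries of polyadenylated RNA. The labels and the study's methods give different read lengths. The authors deposited FPKM for each library, made with Cuffnorm. The submitters' processing notes also name bcl2fastq, HISAT and Cufflinks, without versions. Build: not given in the sources used here. Read numbers are not in the files, so depth is unknown: only relative steps are visible, and among values under 0.1 FPKM 10.0% to 25.9% of 300 to 352 identifiers per library share a single ratio to the lesion of Sadie.

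Tissue and cat came from the labels. Symbols were assigned by matching the sorted lesion and healthy values, floored at 1, of 1981 supplementary rows to 5 significant digits. Each matched 1 identifier, and 47 rows with under 3 values above the floor and 5 symbols turned into dates were left out. Fold changes that the supplementary table holds were not used. The reference table of the cat matched 0 of the Ensembl identifiers.

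Log2 was taken after values below 1 FPKM were raised to 1, which understates changes of low genes. The 13327 identifiers at or above 1 FPKM in any 3 libraries entered a two-sided limma 3.58.1 test (R 4.3.3) of tissue alone, with eBayes trend and p-values adjusted by Benjamini-Hochberg over all of them. The step was tested on simulated data. Ratios and figures used Python 3.11.15. Both libraries of a cat come from the same animal per the labels. Their deviations from the tissue means correlated at 0.49 (Bart), 0.20 (Jerome) and 0.41 (Sadie). The lesion of Jerome correlated more with healthy mucosa of Sadie, at 0.27. The test of tissue alone leaves out the pairing of both libraries within a cat. Counts of calls are also given with the cat as a block, as is the adjusted p of PSAP. Members, gene lists and marker lists were chosen with earlier results of these data known. Genes named in the text are the 2 enzymes, the members of the 7 lists with a symbol (some results are not reported here), and for each enzyme the 5 named genes closest in pattern. Markers, and KRT4, were named after their values were seen. Alternatives changed the floor, the filter, the scaling, the trend, the block and the libraries used.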

Additional observations from a re-analysis of the deposited data

How the results depend on the processing

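The differences of A4GALT and B3GALNT1 kept their direction under all alternatives run. With 0.1 or 1 FPKM added in place of the floor, quantile normalization, centring on the library median or the cat as a replicate block, A4GALT lay between 2.04 and 2.15 on the log2 scale, B3GALNT1 between -2.37 and -2.28, and the log2 ratio difference between 4.35 and 4.45. Leaving out 1 library or 1 cat gave 1.83 (without the lesion of Bart) to 2.29 for A4GALT, -2.64 to -2.11 for B3GALNT1 and 4.29 to 4.75 for the ratio.

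Counts of calls were less stable. Of all tested identifiers, limma called 707 higher and 881 lower, 1622 and 1476 with the cat as a replicate block, and 205 and 321 without the filter on low values. Leaving out 1 library or 1 cat gave 0 to 1036 higher and 0 to 1100 lower. The 0 in both directions came without Jerome and without Sadie (2436 and 2139 identifiers at an unadjusted p under 0.05), and without the lesion of Sadie 0 were higher and 1 lower (3276 unadjusted). Of the 21 glycosphingolipid genes other than A4GALT and B3GALNT1, limma called 7 higher and 4 lower, 8 and 7 with the block, 2 and 1 without the filter, and 0 to 4 and 0 to 6 when 1 library or 1 cat was left out. Counted with A4GALT and B3GALNT1, whose calls follow from their choice and are no result, these become 8 and 5, 9 and 8 with the block, 3 and 2 without the filter, and 0 to 5 and 0 to 7. The cause of these shifts was not tested. Depth limits cannot be stated, since the files hold no read counts.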
